A study of Mus musculus with 9 samples.

Results

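The 10 genes described here encode members of the tumor necrosis factor (TNF) superfamily and its receptors, and were chosen by name from the 54532 genes of the deposited table. They comprise 5 ligands (Tnf, Lta, Ltb, Tnfsf9 and Tnfsf13b) and 5 receptors (Tnfrsf1a, Tnfrsf1b, Tnfrsf8, Cd40 and Fas), and all 10 were found. Their mRNA levels were measured by RNA-seq in RAW264.7, an established mouse macrophage-like line that the sample labels describe as wild type, of macrophage cell type and from ascites. There were 3 groups of 3 libraries. Control cells were untreated, LPS cells received 1 μg/ml of lipopolysaccharide, an outer membrane component of Gram-negative bacteria, and LPS + G-CDs cells received 1 μg/ml of LPS with 400 μg/ml of G-CDs, carbon dots made from Glycyrrhiza by hydrothermal treatment. Per the study's methods, cells were treated for 6 h. In the labels, G-CDs appear only in the sample titles, with LPS as the sole listed treatment, and no group received G-CDs without LPS, so nothing here separates an action of G-CDs on resting cells. All 9 libraries came from 1 cell line, and the labels do not say that libraries of a group came from separate cultures, so the p-values measure the spread between these libraries, which may be technical.

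TNF superfamily ligands are trimeric membrane proteins, some of which are cut from the cell surface by proteases, and they act on receptors that signal through TRAF adaptors to NF-κB or, for receptors with a death domain such as TNFR1 and Fas, to cell death. In macrophages, LPS acts through Toll-like receptor signaling to induce Tnf transcription, and the resulting mRNA is short lived because proteins such as tristetraprolin bind AU-rich elements in its 3′ untranslated region (UTR). Several receptors of the family are themselves NF-κB targets, as is Tnfaip3, whose product A20 restrains the same pathway.

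The libraries held between 14752400 and 17312255 reads on genes. Libraries of a group were most alike under LPS alone, where pairs correlated at 0.987 to 0.988 on log2(FPKM + 1) and the median gene had a standard deviation of 0.0867, against 0.244 in the control and 0.259 in the LPS + G-CDs group. The LPS + G-CDs libraries also differed by gene length, since the 2318 shortest of the tested genes differed from the group mean by -0.26 log2 units in replicate 1 and by 0.30 in replicate 3. The control libraries showed the same kind of difference, with these genes at 0.17 in replicate 3 and at -0.066 and -0.067 in replicates 1 and 2. Of 10 macrophage markers, 9 reached an FPKM of 1 and Mertk was listed at 0 in all libraries, whereas B cell, T cell, fibroblast and epithelial markers stayed under an FPKM of 1 in all 9 libraries and S100a8 alone of 5 neutrophil markers reached it. FPKM divides the reads of a gene by its length and by the size of the library, so levels can be compared roughly between genes. The length differences given above remain in these values. In bulk samples, fewer cells that use a gene and less RNA of it per cell cannot be told apart.

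Sequences of Tnf, Lta and Tnfrsf8 are shown because the results below turn on these genes, and positions of their neighbors are given with them. Ltb, Tnf and Lta are neighbors on chromosome 17 (GRCm38), at chr17:35194439-35196320 on the plus strand, chr17:35199381-35202007 on the minus strand and chr17:35203165-35205351 on the minus strand. The gaps are 3060 bases between Ltb and Tnf and 1157 bases between Tnf and Lta, with 0 protein-coding genes in them. Tnfrsf1b and Tnfrsf8 are neighbors on chromosome 4, at chr4:145213463-145246870 and chr4:145267137-145315164 on the minus strand, 20266 bases apart. The other genes lie apart, Tnfsf9 at chr17:57105325-57107757, Tnfsf13b at chr8:10006467-10039072, Tnfrsf1a at chr6:125349362-125362484, Cd40 at chr2:165055627-165072948 and Fas at chr19:34290659-34327770, all on the plus strand. The 3′ UTR of Tnf (764 bases in GENCODE release M21) holds 8 copies of ATTTA and 5 of the longer AU-rich nonamer TTATTTATT, a number reached by 30 of 20619 mouse genes with an annotated 3′ UTR (0.145%), while 6.91% hold at least 1. Lta and Tnfsf13b hold 1 nonamer each and the other 7 genes hold 0. Bases 1310 to 1339 of the Tnf transcript, which carry 4 overlapping nonamers, are printed with the nonamer bases in capitals:
Tnf AU-rich element: ttaTTATTTATTATTTATTTATTATTTATT
The study also quantified Tnf mRNA by qPCR, with primers that match the coding sequence of this transcript at bases 397 to 419 (exons 2 and 3) and 439 to 457 (exons 3 and 4) and bracket 61 bases. Both primers cross an exon junction. No qPCR values were analysed here:
Tnf forward primer: ccctcacactcagatcatcttct
Tnf reverse primer: gctacgacgtgggctacag

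The 250 bases upstream of the transcription start were available for 8 of the 10 genes (RefSeq, GRCm38.p6; Tnfsf9 and Cd40 had no entry) and were searched for an NF-κB consensus of the RelA type and for the AP-1 letters TGANTCA on both strands, and for TATAAA on the gene's own strand. A κB match was present in 2 of the 8 genes, Ltb and Tnfrsf8, against 7.25% of 32851 promoters of the same length. AP-1 letters were present in 3, Tnfrsf8, Fas and 1 of 2 Tnfsf13b entries (6.75% of all), and TATAAA in 2, Tnf and Lta (7.59% of all). These are matches of letters in a short window and say nothing of what binds there. The windows of Tnf, Lta and Tnfrsf8, which lie at chr17:35202008-35202257, chr17:35205352-35205601 and chr4:145315165-145315414 on the minus strand next to their genes, are printed with matches in capitals. The capitals mark TATAAA in Tnf and Lta, and in Tnfrsf8 a pair of overlapping κB matches followed by the AP-1 letters:
Tnf upstream: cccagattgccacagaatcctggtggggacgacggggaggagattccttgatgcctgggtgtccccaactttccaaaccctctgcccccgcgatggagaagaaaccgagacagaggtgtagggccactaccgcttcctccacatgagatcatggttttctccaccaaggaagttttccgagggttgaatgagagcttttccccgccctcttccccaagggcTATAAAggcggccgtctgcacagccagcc
Lta upstream: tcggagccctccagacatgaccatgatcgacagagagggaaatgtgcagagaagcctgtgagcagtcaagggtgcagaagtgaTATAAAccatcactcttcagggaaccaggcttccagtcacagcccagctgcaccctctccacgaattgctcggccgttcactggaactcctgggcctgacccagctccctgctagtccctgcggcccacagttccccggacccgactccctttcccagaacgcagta
Tnfrsf8 upstream: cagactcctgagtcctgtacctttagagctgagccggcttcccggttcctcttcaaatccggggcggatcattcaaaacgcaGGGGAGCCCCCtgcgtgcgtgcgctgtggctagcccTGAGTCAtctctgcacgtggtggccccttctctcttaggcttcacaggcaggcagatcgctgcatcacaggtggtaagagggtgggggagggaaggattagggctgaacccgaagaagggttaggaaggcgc

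Tnf and both TNF receptor genes, Tnfrsf1a and Tnfrsf1b, rose with LPS, as did Tnfsf9, and Lta, Cd40, Fas and Tnfrsf8 went from under 1 FPKM in every control library to above it in every LPS library. In mean FPKM the rises ran from 1.53-fold for Tnfrsf1a to 112-fold for Cd40, and beyond that for Lta and Tnfrsf8, which had almost no reads in control cells. The ligand Tnfsf13b lay lower in all LPS libraries. limma was run on log2(FPKM + 1) over 11585 genes, those reaching an FPKM of 1 in 3 or more libraries, a scale that understates the change of genes with low FPKM, and a gene was called at a Benjamini-Hochberg adjusted p under 0.05. Lta, Cd40, Fas and Tnfrsf8 were tested only because of their level in LPS-treated groups, so the filter required them to differ from control and their calls are given as descriptions. Of the other 5 tested members, 4 were called higher, and 15.8% of all tested genes were. These 5 lay higher in every LPS library than in every control library, as did 27.4% of tested genes.

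Tnf encodes the founding cytokine of the family. Its FPKM was 34.0, 58.9 and 67.1 in the control libraries, 2539, 2449 and 2549 under LPS, and 2448, 2669 and 2748 under LPS + G-CDs. It was the most abundant of the 10 genes in each group, although the control libraries of Tnf and Ltb overlapped. LPS raised it 47.1-fold in mean FPKM and by 5.59 on the log2(FPKM + 1) scale (SE 0.24, where SE is the standard error, limma adjusted p = 5.2e-07). Between LPS and LPS + G-CDs the libraries overlapped and the fitted difference was 0.060 with a 95% interval from -0.49 to 0.61 (adjusted p = 0.89). This interval uses a spread pooled over the 3 groups, and the control libraries varied most. The SD of Tnf was 32.3% of its mean FPKM in control, 2.20% in LPS and 5.92% in LPS + G-CDs libraries. The sign of the fitted difference between LPS + G-CDs and LPS turned when values were rescaled to an equal sum in each library (TPM), giving -0.11. It also turned when the length trend was removed, giving -0.15.

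Lta encodes lymphotoxin-α, a secreted ligand of both TNF receptors. Its FPKM was 0.0385, 0.0425 and 0 in control cells, 14.4, 13.5 and 12.8 after LPS, and 4.90, 6.14 and 6.43 after LPS + G-CDs. The groups did not overlap in any pairing, and the LPS + G-CDs libraries lay between the other 2 groups. Behind these values were 2 reads over the control libraries, 791 over the LPS libraries and 364 over the LPS + G-CDs libraries. The LPS to control ratio of read rates was 503, with an exact conditional binomial 95% interval from 139 to 4158 that covers counting error only. LPS raised Lta by 3.83 on the log2(FPKM + 1) scale (SE 0.12, limma adjusted p = 6.8e-08).

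Ltb encodes lymphotoxin-β, which anchors lymphotoxin-α at the cell membrane. It measured 49.2, 38.3 and 66.3 FPKM in control, 88.0, 76.7 and 94.1 in LPS, and 44.6, 64.3 and 99.6 in LPS + G-CDs libraries. Control and LPS libraries did not overlap, whereas the LPS + G-CDs libraries spanned both. The difference between LPS and control, 0.77 with a 95% interval from 0.11 to 1.43, missed the threshold (SE 0.29, limma adjusted p = 0.076). Same-numbered control and LPS libraries deviated together only weakly over all tested genes (correlations of 0.103, 0.137 and 0.113). With the replicate number as a block in the fit, the same difference passed the threshold (SE 0.21, adjusted p = 0.028). It also passed without control replicate 3 (0.97, adjusted p = 0.0498), LPS + G-CDs replicate 1 (adjusted p = 0.034) or LPS + G-CDs replicate 3 (adjusted p = 0.027). Over 19 alternatives it passed in 6 and missed in 13, with limma adjusted p-values up to 0.206.

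Tnfsf9 encodes 4-1BBL, a membrane ligand that costimulates T cells. Its FPKM was 9.84, 29.5 and 32.0 in control libraries and 69.8, 64.9 and 74.3 under LPS, with control replicate 1 the lowest. In this library 0.277% of reads were mitochondrial, against 1.11% to 2.14% in the others. LPS raised the gene 2.93-fold in mean FPKM, a log2 fold change of 1.67 (SE 0.39, limma adjusted p = 0.011), and without control replicate 1 the log2 fold change was 1.15 (SE 0.20, adjusted p = 0.0043). Of its 50-base words, 11.5% also occur in Gm11110, a noncoding gene on the opposite strand with an FPKM of 2.27 to 5.72 in the 9 libraries, and because no source used here says that counting used strand, reads of the overlap cannot be assigned with certainty.

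Tnfsf13b encodes BAFF, the B cell survival factor, and was the one of the 5 ligands described here that lay lower under LPS. It measured 0.722, 0.581 and 0.785 FPKM in control, 0.485, 0.337 and 0.351 in LPS, and 0.584, 0.614 and 0.674 in LPS + G-CDs libraries. The LPS libraries lay below all others. No library reached an FPKM of 1, so the gene was outside the test, and the 257, 113 and 193 reads of the 3 groups gave an LPS to control ratio of 0.559 (counting interval 0.444 to 0.700). Fitted with all 25079 genes that had a read, its difference was -0.29 (SE 0.09, limma adjusted p = 0.070).

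**Figure D1:**
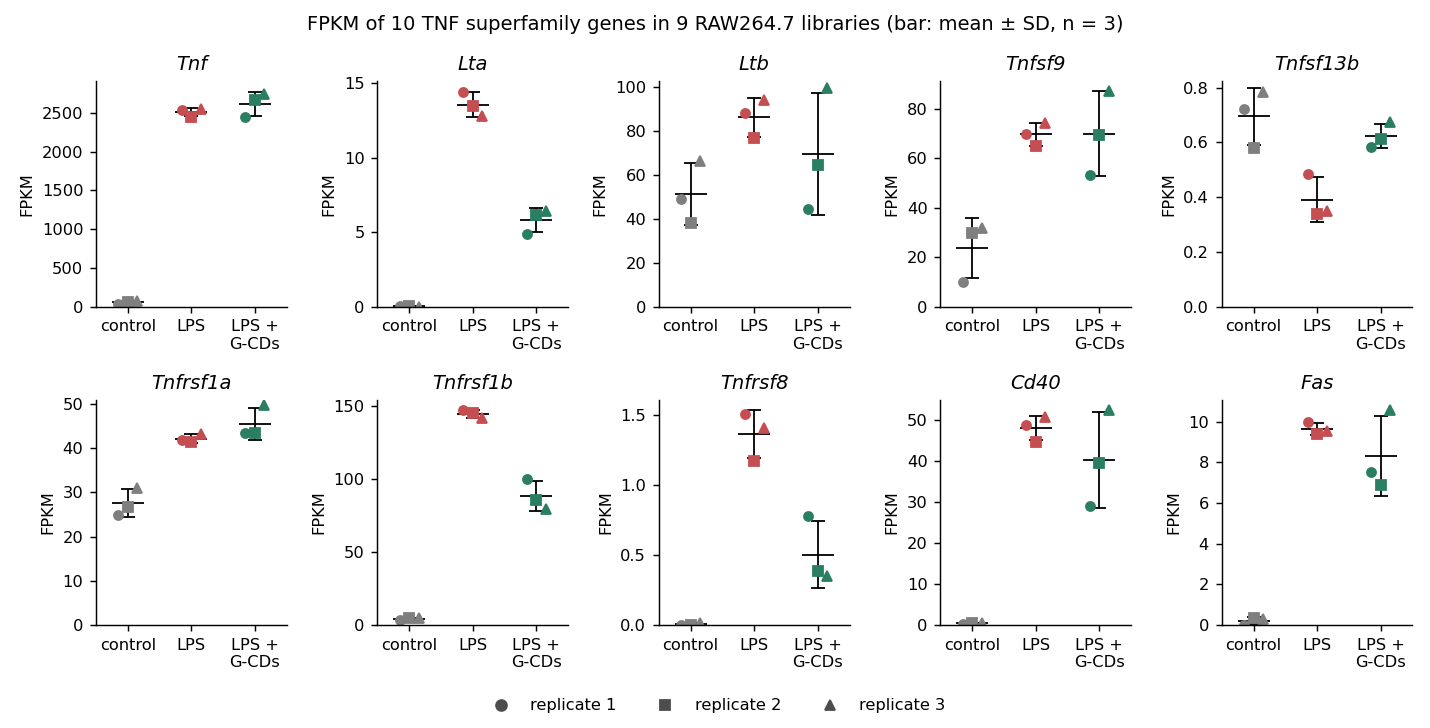
FPKM of each of the 10 genes (y axis, linear, from 0) in the control, LPS and LPS + G-CDs libraries (x axis). Symbols are single libraries by replicate number, and bars give the mean ± SD of 3. Tnf stands between 2448 and 2748 FPKM in both LPS groups, while Lta, Tnfrsf1b and Tnfrsf8 sit lower in all LPS + G-CDs libraries than in all LPS libraries.

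Of the receptors, Tnfrsf1b and Tnfrsf1a rose with LPS by unequal amounts, while for Cd40, Fas and Tnfrsf8 the filter required a difference from control. Tnfrsf1b, encoding the inducible TNF receptor TNFR2, had 3.60, 4.51 and 4.52 FPKM in control libraries, 147, 145 and 142 under LPS, and 99.7, 85.8 and 79.4 under LPS + G-CDs. It rose 34.4-fold in mean FPKM under LPS (log2 fold change 4.81, SE 0.13, limma adjusted p = 2.6e-08). Tnfrsf1a, encoding the broadly expressed receptor TNFR1, measured 25.0, 26.8 and 31.0 in control, 41.8, 41.4 and 43.3 in LPS, and 43.4, 43.5 and 49.7 in LPS + G-CDs libraries. Its rise was the smallest of those called, 1.53-fold (log2 fold change 0.60, SE 0.12, adjusted p = 0.0051), and under TPM scaling, which put the median of all tested genes at -0.23, it was 0.35 with an adjusted p of 0.0502. In control cells the mean FPKM of Tnfrsf1a was above that of Tnfrsf1b (27.6 ± 3.08 against 4.21 ± 0.525, SD, n = 3), and under LPS the order was the opposite (42.2 ± 1.00 against 145 ± 2.59), with no overlap in either group.

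Cd40 encodes the receptor through which T cells license macrophages, and its FPKM went from 0.329, 0.535 and 0.429 in control to 48.8, 44.7 and 50.7 in LPS libraries. This was 112-fold in mean FPKM and a difference of 5.10 on the log2(FPKM + 1) scale, which understates the change from a control level under 1 (SE 0.19, limma adjusted p = 2.1e-07). Fas, the death receptor CD95, went from 0, 0.326 and 0.312 to 9.96, 9.41 and 9.51 FPKM, a log2 fold change of 3.14 (SE 0.17, adjusted p = 2.1e-06). Its reads rose 46.5-fold in rate, with a counting interval from 29.9 to 76.5. For both receptors the LPS libraries lay close together and far from the control libraries.

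Tnfrsf8 encodes CD30, a receptor best known from activated lymphocytes, and had the lowest level of the receptors in each group. Control libraries measured 0, 0 and 0.0162 FPKM, LPS libraries 1.51, 1.17 and 1.41, and LPS + G-CDs libraries 0.780, 0.383 and 0.350. The 3 groups did not overlap. It entered the test only through its LPS libraries, and it had no other library at an FPKM of 1 (log2 fold change 1.23, SE 0.15, limma adjusted p = 0.00034). The read rates, from 1 read in control and 199 in LPS libraries, stood at a ratio of 253 with a counting interval from 44.9 to 10040.

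Ordered by mean FPKM, the LPS libraries gave Tnf, Tnfrsf1b, Ltb, Tnfsf9, Cd40, Tnfrsf1a, Lta, Fas, Tnfrsf8 and Tnfsf13b, and no 2 neighbors in this order overlapped. The control order was Tnf, Ltb, Tnfrsf1a, Tnfsf9, Tnfrsf1b, Tnfsf13b, Cd40, Fas, Lta and Tnfrsf8, with overlap between Tnf and Ltb, Tnfrsf1a and Tnfsf9, Fas and Lta, and Lta and Tnfrsf8. Under LPS + G-CDs the genes from Tnfrsf1b through Tnfsf9, Ltb and Tnfrsf1a to Cd40 each overlapped the next, as did Tnfsf13b and Tnfrsf8 at the low end, and Fas stood above Lta, the reverse of their order under LPS alone.

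The comparison of LPS + G-CDs with LPS asked which of these genes G-CDs altered in stimulated cells, and it shares the LPS libraries with the comparison above. Lta fell, and Tnfrsf1b and Tnfrsf8 lay lower in all LPS + G-CDs libraries without passing the adjusted threshold, whereas Tnf, Tnfsf9, Cd40, Fas and Ltb overlapped between the groups. By the adjusted threshold 1 of the 9 tested members was called, and it was lower, as were 0.242% of all tested genes. Tnfrsf8 was tested only through its LPS libraries, so the filter favored a lower value in the LPS + G-CDs group and it is left out of the next counts. At the study's threshold, an unadjusted p under 0.01 with over 1.5-fold change, 2 of the other 8 members passed, Lta and Tnfrsf1b, both lower, and 1.24% of tested genes passed with a lower level. The same 2 members lay lower without overlap, as did 15.0% of tested genes, and Tnfrsf1a lay higher without overlap, as did 12.9%.

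Lta went from 13.6 ± 0.829 to 5.82 ± 0.813 FPKM (SD, n = 3), a difference of -57.1%, with a log2 fold change of -1.10 (SE 0.12, 95% interval -1.38 to -0.83, limma adjusted p = 0.0068). Its 3 LPS + G-CDs libraries differed from the LPS mean by -1.30, -1.03 and -0.97 log2 units. The call held in 15 of 19 alternative analyses and was lost with a pseudocount of 0.1 (adjusted p = 0.058) and without LPS replicate 1 (0.068), LPS replicate 2 (0.074) or LPS + G-CDs replicate 2 (0.061). Lta and Tnfrsf8 are among the genes the study picked from these libraries for its heatmap, so their direction is not independent evidence. Its neighbor Tnf, 1157 bases away, had 2512 ± 55.4 FPKM under LPS and 2622 ± 155 under LPS + G-CDs.

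Tnfrsf1b went from 145 ± 2.59 to 88.3 ± 10.4 FPKM, a difference of -39.0% (log2 fold change -0.71, SE 0.13, 95% interval -1.01 to -0.42), with an unadjusted p of 0.00038 and a limma adjusted p of 0.066. It passed the adjusted threshold in 3 of 19 alternatives, which were removal of the length trend (adjusted p = 0.039), leaving out control replicate 1 (0.045) and leaving out LPS + G-CDs replicate 1 (0.030). Tnfrsf8 went from 1.36 ± 0.172 to 0.504 ± 0.239 FPKM on 199 and 78 reads, a difference of -63.0% (log2 fold change -0.66, SE 0.15, unadjusted p = 0.0020, adjusted p = 0.15). Without LPS + G-CDs replicate 1, its highest LPS + G-CDs library, the adjusted p was 0.048. Because the filter favored a lower value here, these p-values of Tnfrsf8 lend no support to a direction. The LPS + G-CDs libraries lay at -0.53 to -0.86 log2(FPKM + 1) units from the LPS mean for Tnfrsf1b and at -0.41 to -0.81 for Tnfrsf8.

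**Figure D2:**
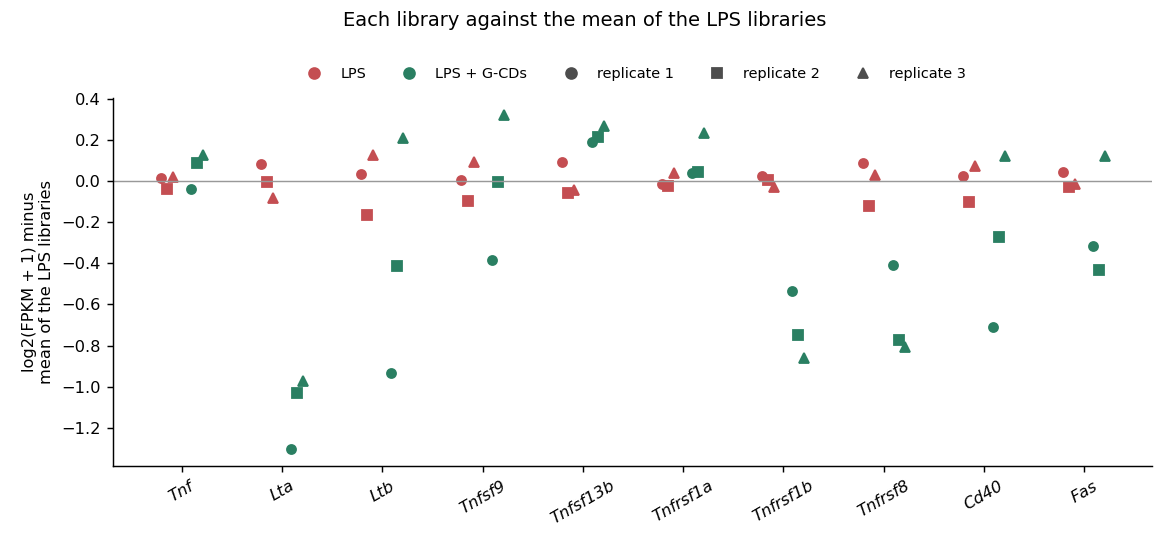
Level of each gene in the LPS and LPS + G-CDs libraries, as log2(FPKM + 1) minus the mean of the LPS libraries (y axis), by gene (x axis) and with replicate numbers as symbols. Lta lies between -0.97 and -1.30 in all LPS + G-CDs libraries, while Ltb, Tnfsf9, Cd40 and Fas each have replicate 3 above 0 and replicate 1 below it.

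The other members gave smaller differences or wider spread. Cd40 measured 29.0, 39.6 and 52.4 FPKM under LPS + G-CDs, from below to above the LPS libraries, a difference of -0.29 with a 95% interval from -0.72 to 0.15 (limma adjusted p = 0.40). Fas measured 7.53, 6.89 and 10.6, a difference of -0.21 (-0.60 to 0.18, adjusted p = 0.47). Tnfsf9 measured 53.1, 69.4 and 87.4, a difference of -0.020 (-0.90 to 0.86, adjusted p = 0.98). The interval for Tnfsf9 reaches close to 1 log2 unit on either side, so this fit does not exclude a sizeable change in either direction. The fit pools the spread over the 3 groups, so the control libraries add to this width. The SD of Tnfsf9 was 51.0% of its mean FPKM in control, 6.73% in LPS and 24.5% in LPS + G-CDs libraries.

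For Ltb the difference was -0.38 (-1.04 to 0.28, limma adjusted p = 0.45) and for Tnfrsf1a 0.11 (-0.17 to 0.38, adjusted p = 0.59). Replicate 3 of the LPS + G-CDs group gave the highest level in that group of all members but Tnfrsf1b and Tnfrsf8, and it is also the library in which short genes lay high as a class. After the length trend was removed, all 3 LPS + G-CDs libraries lay below the LPS mean for Tnf, Ltb, Tnfsf9, Cd40 and Fas, each of which had libraries on both sides before, and none of these 5 passed the threshold. The 3 LPS + G-CDs libraries differed from the LPS mean by -0.91, -0.60 and -0.25 log2 units for Ltb and by -0.31, -0.62 and -0.32 for Fas, in order of replicate number. The limma adjusted p was 0.22 for each of these 2 genes. Tnfrsf1a turned to -0.042 under this removal and to -0.060 under TPM. Tnfsf13b was 1.60 times as high under LPS + G-CDs as under LPS by reads (counting interval 1.26 to 2.03), without overlap, and its fitted difference among all genes with a read was 0.22 (adjusted p = 0.48).

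**Figure D3:**
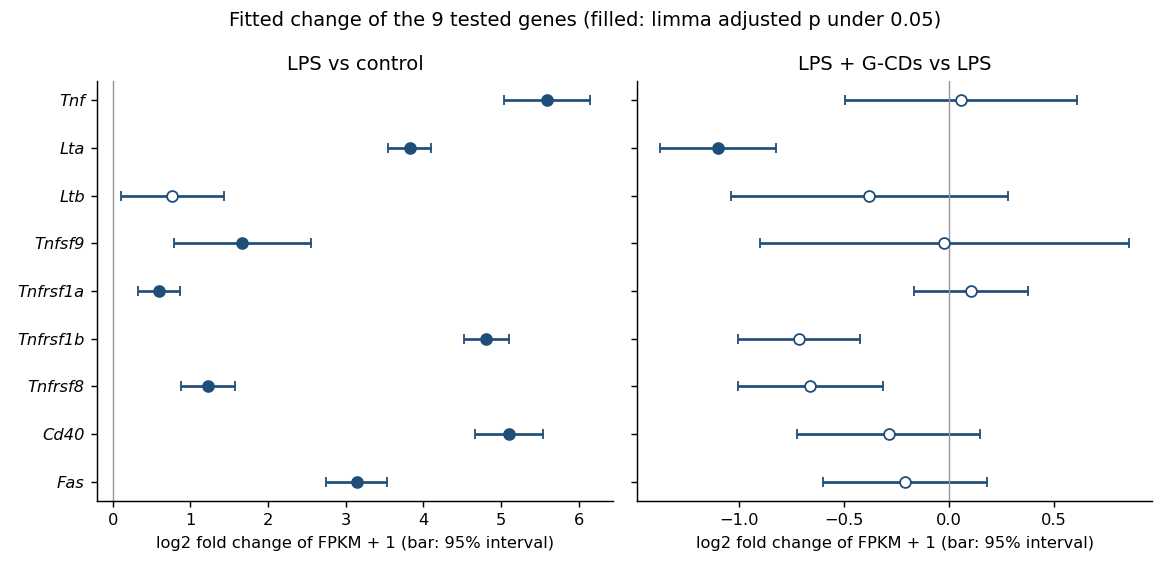
Fitted log2 fold change of FPKM + 1 (x axis) with its 95% interval for the 9 tested members (y axis), for LPS against control on the left and LPS + G-CDs against LPS on the right. Filled points passed a limma adjusted p under 0.05, which are 8 points on the left and Lta alone on the right. On the left, the filter required Lta, Cd40, Fas and Tnfrsf8 to differ from control, so their filled points are descriptions. Of all tested genes, 15.8% were called higher on the left and 0.242% lower on the right. The x axes of the panels differ in scale.

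Compared with control, cells given LPS + G-CDs still showed the same 4 of the 5 members higher that the filter did not tie to LPS-treated groups (12.8% of tested genes were higher), and this comparison shares libraries with each of the others. In mean FPKM the ratio to control was 49.2 for Tnf, 93.6 for Cd40, 21.0 for Tnfrsf1b, 2.94 for Tnfsf9 and 1.65 for Tnfrsf1a. By reads it was 39.7 for Fas (counting interval 25.5 to 65.5), 216 for Lta (59.4 to 1792) and 92.6 for Tnfrsf8 (16.1 to 3706), the last 2 on 2 and 1 control reads. On the log2(FPKM + 1) scale, which shrinks the differences of genes under 1 FPKM in control, the fitted values were 5.65 for Tnf, 4.82 for Cd40, 4.10 for Tnfrsf1b, 2.93 for Fas, 2.73 for Lta, 1.65 for Tnfsf9, 0.71 for Tnfrsf1a and 0.57 for Tnfrsf8, with limma adjusted p-values of at most 0.024. Ltb did not pass (0.39, adjusted p = 0.38). The p-values of Lta, Cd40, Fas and Tnfrsf8 are descriptions, because these genes were tested only through LPS-treated groups. The Tnfrsf1a call was lost under TPM (0.28, adjusted p = 0.094). The Tnfrsf8 call, on 78 reads, was lost in 5 of 18 alternatives, among them without control replicate 1, control replicate 2 or LPS + G-CDs replicate 1, with adjusted p-values of 0.052, 0.064 and 0.059.

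The remaining genes of the family and its pathway were taken from 4 lists of 76 genes. None of the 13 other ligands reached the filter. Among them Tnfsf15, encoding TL1A, had 0 reads in the control libraries, 30, 44 and 37 in LPS and 25, 15 and 0 in LPS + G-CDs libraries, while Tnfsf14, encoding LIGHT, had 20, 24 and 26 reads in control, 1, 7 and 1 in LPS and 2, 7 and 6 in LPS + G-CDs libraries. The ligands of Cd40 and Tnfrsf11a, encoded by Cd40lg and Tnfsf11, were listed at 0 in all libraries. These 4 genes were named after their values were seen.

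Of 23 other receptors, 11 were tested, and 8 of these reached an FPKM of 1 in all control libraries and in 3 or more LPS-treated ones. Of these 8, LPS raised 1 and lowered 3, beside 15.8% and 15.6% of all tested genes. The remaining 3 were Tnfrsf14, which was not called, and Tnfrsf9 and Tnfrsf10b, which were tested only through LPS-treated libraries and are given as descriptions. Tnfrsf9, the receptor of Tnfsf9, went from 0.220 ± 0.104 to 1.70 ± 0.467 FPKM (log2 fold change 1.13), and Tnfrsf10b had a log2 fold change of 0.70. Tnfrsf12a rose by 0.69 (limma adjusted p = 0.040), a call kept in 12 of 19 alternatives and lost under TPM, among others. Tnfrsf11a, which encodes RANK, the receptor that drives osteoclast formation, fell from 15.9 ± 3.41 to 5.95 ± 0.0810 FPKM (log2 fold change -1.26), and Relt had a log2 fold change of -1.16. Under G-CDs 0 of the 11 were called by limma, 0 had an unadjusted p under 0.05, and voom on the recovered reads also called 0. Of all tested genes 0.492% were called there.

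Receptor-proximal signaling genes were tested in full, and LPS raised 10 of 25 and lowered 2, against 15.8% and 15.6% of all tested genes. Traf5 alone of these was tested only through LPS-treated libraries, and it was not called. The 5 largest changes were in Traf1 (log2 fold change 3.74), Tnfaip3 (3.56), Cflar, encoding the caspase-8 inhibitor c-FLIP (2.49), Birc3, encoding cIAP2 (2.46), and Tnip1 (2.16). Tnfaip3 was the only gene of the 4 lists that passed the adjusted threshold between LPS + G-CDs and LPS. It went from 44.2, 43.6 and 41.5 to 23.8, 20.2 and 15.6 FPKM (log2 fold change -1.10, limma adjusted p = 0.043). That call held in 8 of 19 alternatives and was lost without control replicate 2, any 1 LPS replicate, or LPS + G-CDs replicate 2 or 3, with adjusted p-values from 0.092 to 0.24, and Tnfaip3 too is in the study's heatmap. Traf1 measured 39.0, 45.2 and 57.5 FPKM under LPS + G-CDs and 46.0, 42.9 and 45.2 under LPS, which overlapped. In all, 9 of the 25 genes had an unadjusted p under 0.05 in this comparison, as did 15.2% of all tested genes, and voom called 0.

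The genes that cut TNF ligands from the membrane or act on their mRNA were tested for 14 of 15. LPS raised 10 and lowered 2, where 15.8% of all tested genes rose and 15.6% fell. Zfp36, encoding tristetraprolin, the protein that binds the AU-rich element printed above, rose from 9.71 ± 1.88 to 215 ± 2.21 FPKM (log2 fold change 4.35), Zc3h12a, encoding the RNase Regnase-1, rose by 3.57, the protease gene Furin by 2.78 and Rhbdf2, which encodes a partner of the TNF sheddase, by 2.33. Zfp36l2 fell (-1.57). All 14 had a negative difference between LPS + G-CDs and LPS, as did 48.0% of all tested genes, with a median of -0.37, and 0 of 14 passed the limma threshold (4 had an unadjusted p under 0.05, where 15.2% of all tested genes did, and voom called 0). These genes had a median length of 5363 bases, against 3758 over all tested genes, and with the length trend removed 12 of 14 were negative, with a median of -0.28. Zfp36 was at 160, 171 and 148 FPKM under LPS + G-CDs and 218, 214 and 214 under LPS, a difference of -0.43 (adjusted p = 0.28). Rhbdf2 passed the study's threshold only (log2 fold change -0.63, limma unadjusted p = 0.0014, adjusted p = 0.13). At that threshold 1.24% of tested genes passed with a lower level. Over the 4 lists, 28 changed under LPS of the 46 genes that reached an FPKM of 1 in all control libraries and in 3 or more LPS-treated ones, where 31.3% of all tested genes changed, and 1 of 50 tested genes changed between LPS + G-CDs and LPS.

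**Figure D4:**
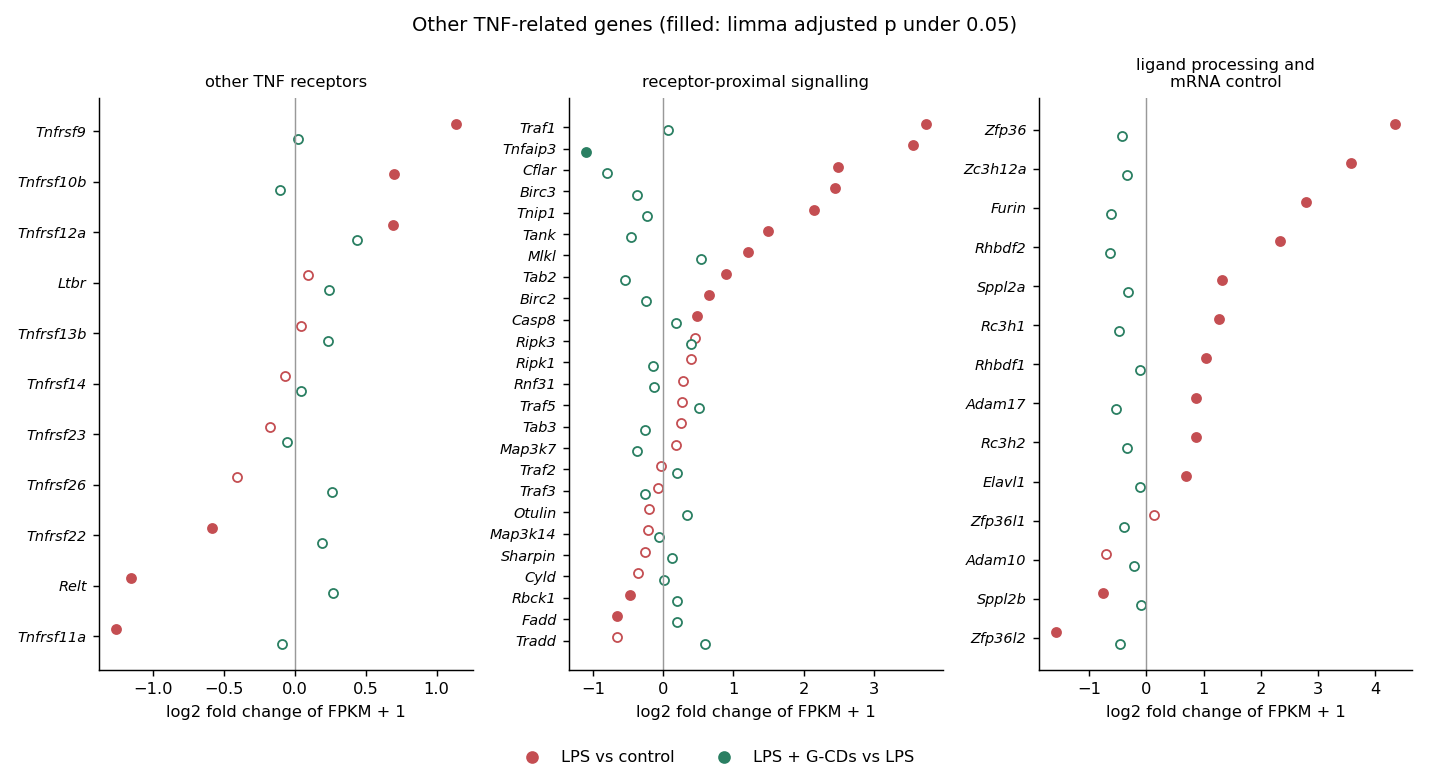
Log2 fold change of FPKM + 1 (x axis) of the tested genes of 3 lists (y axis), for LPS against control in red and LPS + G-CDs against LPS in green, with filled points for a limma adjusted p under 0.05. Filled red points lie on both sides of 0, with more of them above it, and Tnfaip3 at -1.10 is the one filled green point.

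Genes whose level over the 9 libraries was nearest to a member's were found by the Euclidean distance between mean-centered log2(FPKM + 1) values. Nearest to Tnf was Phlda1 (distance 0.583), then Ifi202b (0.702) and the chemokine gene Cxcl10 (1.08). Lta was nearest to Lcn2 (0.354), which encodes lipocalin-2, then Lix1 (0.728) and Tnfaip3 (0.826). Tnfrsf1b was nearest to Hdc (0.574), Cd40 to the chemokine gene Ccl2 (0.551), Fas to Spp1 (0.414), which encodes osteopontin, Tnfrsf8 to C3 (0.254), Tnfsf9 to Il2rg (0.638), Ltb to Mecr (0.470) and Tnfrsf1a to Mterf3 (0.0990). The libraries are shared by all these genes, and the distances are descriptions with no test.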

How the data were processed

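Poly(A) RNA of 9 RAW264.7 libraries (3 per group) was sequenced by the authors on an Illumina instrument. The authors deposited FPKM values per gene, with gene coordinates and lengths. The submitters' processing notes name GRCm38 and mm10; the aligner, counter and annotation are not given in the sources used here. Coordinates of 9 of the 10 genes equaled GENCODE M21, and those of Fas differed by a few bases. FPKM times gene length gave whole reads (within 0.05 reads) in 100.0% of cases, and these reads served for depth, counting intervals and voom. The library size the authors divided by was 1.11 to 1.14 times the reads on genes in control, 0.929 to 0.936 in LPS and 0.880 to 0.980 in LPS + G-CDs libraries, so the values already hold a scaling between libraries. Value columns of other samples numbered 0.

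The 11585 genes reaching an FPKM of 1 in 3 or more of the 9 libraries were fitted as log2(FPKM + 1) with limma 3.58.1 (lmFit, eBayes with trend) in R 4.3.3, in 1 model of the 3 groups. Tests were two-sided, with Benjamini-Hochberg adjustment over all genes tested. The test was checked on simulated data. Tables were prepared with Python 3.11.15 and pandas 2.3.3, and intervals with scipy 1.17.1. The members and gene lists were chosen with earlier results of these data known. The text names the members, the 5 largest called changes of each list under LPS, each gene of a list called between LPS + G-CDs and LPS, the nearest genes, and 4 ligands, Tnfrsf14 and Traf5, chosen after their values were seen.

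Alternatives were a pseudocount of 0.1, no filter, a filter at an FPKM of 5, TPM, median-of-ratios scaling, 6 libraries alone, eBayes without trend, voom on reads, removal of the length trend, leaving out each library in turn, and the replicate number as a block. The groups share replicate numbers. Between control and LPS libraries of the same number, deviations from the group means correlated at 0.103, 0.137 and 0.113, all above a limit of 0.1. These correlations are weak, so the numbers were treated only as a possible pairing. For LPS and LPS + G-CDs the values were 0.0950, 0.0801 and 0.143, which did not all exceed that limit. For control and LPS + G-CDs they were 0.280, 0.0575 and 0.653, but control replicate 2 and LPS + G-CDs replicate 1 gave 0.504. The block was fitted over all 3 groups.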

Additional observations from a re-analysis of the deposited data

How the results depend on the processing

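Every LPS against control difference of the 9 tested members kept its direction in all alternatives, and 163 of 170 such values also kept their side of the threshold. The exceptions were the loss of Tnfrsf1a under TPM and a gain for Ltb in 6 settings, among them the replicate block, which changed no other call of a member. These counts include Lta, Cd40, Fas and Tnfrsf8, which the filter required to differ from control, so their steadiness lends no support. Of the other 5 members, Tnf, Tnfsf9 and Tnfrsf1b kept their call in 19 of 19 alternatives and Tnfrsf1a in 18. Ltb stayed uncalled in 13. TPM gave 1003 genes higher and 3059 lower under LPS, against 1827 and 1803 as reported, with the median of all tested genes at -0.23, and at -0.14 between LPS + G-CDs and LPS.

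Between LPS + G-CDs and LPS, counts depended on the setting. Of all genes, 57 changed as reported (29 higher, 28 lower), 25 with a pseudocount of 0.1 (18 higher, 7 lower), 27 under TPM, 25 with the 6 libraries alone, 87 with the length trend removed and 11 to 256 with a library left out, the most without LPS + G-CDs replicate 1 (106 higher, 150 lower). Leaving out any library but control replicate 1 (63) or control replicate 3 (43) moved that count by over 1.5 times, and the 6 alternatives without a count given here gave 41 to 63. Of the members, 1 changed as reported, 0 with a pseudocount of 0.1, 2 with the length trend removed and 0 to 3 with a library left out. Of the other TNF-related genes, 1 changed as reported, 0 with a pseudocount of 0.1, no filter, TPM, the 6 libraries alone or voom, and 0 to 4 with a library left out. The causes were not tested.

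Few differences turned direction. Between LPS + G-CDs and LPS they were Tnf, at -0.11 under TPM and -0.15 with the length trend removed, Tnfsf9, which with a library left out ran from -0.19 without LPS + G-CDs replicate 3 through 0.026 without LPS replicate 3 to 0.16 without LPS + G-CDs replicate 1, and Tnfrsf1a, at -0.060 under TPM and -0.042 with the length trend removed. Ltb turned to -0.042 against control under TPM. Depth limited Tnfsf13b, Tnfrsf8 and control Lta, Fas and Tnfrsf8, which rest on few reads, and Tnfrsf8 gave no value under the stricter filter.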
